A study of Mus musculus with 31 samples.

Results

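Skin of SHARPIN-deficient cpdm mice was compared with wild type skin at 8 weeks of age, on 1 array per skin sample. The comparison uses 6 of the study's 31 arrays, 3 of cpdm skin (strain C57BL/KaLawRij-Sharpincpdm/Sharpincpdm RijSunJ) and 3 of wild type skin (strain C57BL/6J). All mice were female and no treatment is named in the labels. Both groups are inbred C57BL mice, but of different substrains, so that substrain and Sharpin genotype cannot be told apart in any difference given here. The design text counts 31 samples from 31 mice, 15 cpdm and 16 wild type, and nothing more is said of litters or of how mice were housed, so p-values measure the spread between these samples. The series was titled as a study of blood vessel growth in this dermatitis, and vessel genes are therefore described beside epidermal and immune genes. Each gene is represented by 1 probe set, that with the highest mean signal over the 31 arrays among probe sets of a single gene, which gave 19938 genes.

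SHARPIN is a subunit of the linear ubiquitin chain assembly complex, in which RNF31 (HOIP) is the ligase and RBCK1 (HOIL-1) the other partner. The complex attaches linear ubiquitin chains to proteins of the tumour necrosis factor receptor signalling complex, which helps to activate NF-kB and to restrain cell death through caspase 8 and RIPK3. The spontaneous cpdm mutation removes SHARPIN, and the mice develop chronic proliferative dermatitis, in which the epidermis thickens, keratinocytes die singly, and granulocytes enter the skin. Skin also holds hair follicles that pass through cycles of growth and rest, sebaceous glands, dermal fibroblasts, fat, and a thin sheet of skeletal muscle, and a piece of whole skin mixes RNA of all of them. In such bulk samples fewer cells of a type and less RNA per cell cannot be told apart. All 6 arrays carried strong signal of skin markers, with values (log2 intensity) of 12.31 to 12.66 for Krt5, the basal keratin, 11.54 to 12.96 for Krt14, its partner, and 10.48 to 12.00 for Lor, the main protein of the cornified envelope.

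Sharpin was measured at 7.44, 7.41 and 7.47 in cpdm replicates 1 to 3 and 8.32, 8.10 and 7.98 in wild type replicates 1 to 3. The genotypes did not overlap, and the difference was -0.69 ± 0.09 on the log2 scale (limma, adjusted p = 2.81e-06), given throughout as cpdm minus wild type ± standard error with n = 3 and 3 arrays. Wild type replicate 3 stood apart from the other wild type arrays. Its correlation across genes with them was 0.950 and 0.958, against 0.988 between wild type replicates 1 and 2 and 0.981 to 0.992 among the cpdm arrays. The genes by which it stood highest above replicates 1 and 2 were Krt26, a keratin of the inner root sheath of the hair (11.63 against 4.71 and 5.01), Crnn, a protein of differentiating epithelium (11.73 against 5.17 and 5.59), and Gprc5d, a receptor of the hair cortex (10.94 against 4.38 and 4.88). It stood lowest for Serpinb10 (4.59 against 7.57 and 7.80), Krt6b (5.64 against 8.54 and 8.00) and Stfa3 (4.73 against 7.30 and 6.85). The counts of called genes are therefore given with it and, with n = 3 and 2, without it. Single genes called with all arrays are also given without it where their call ended or their difference moved by over 1.5 times. Genes not called with all arrays are given without it only in part, and changes of sign among them are listed at the end.

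At 8 weeks 3468 of 19938 genes (17.4%) differed between the genotypes at an adjusted p below 0.05 (limma, all genes adjusted together). Of these, 1435 were higher in cpdm skin (7.2% of genes tested) and 2033 lower (10.2%), and the median difference over all genes was -0.0083. A gene is said here to rise or fall only if it passed this test. Without wild type replicate 3 the count was 5127 (25.7%), with 1942 higher (9.74%) and 3185 lower (16%). The same 3097 genes were called both ways, 371 only with that array and 2030 only without it, and 0 changed direction. The arrays of the genotypes did not overlap for 4377 genes (22%), 2043 higher and 2334 lower. Differences of at least 2-fold were seen in 338 genes that rose and 230 that fell. The spread of each gene was estimated over the arrays of all 10 groups of genotype and age. Fitted on the 6 arrays alone, 311 genes were called, 237 higher and 74 lower. Without wild type replicate 2 the total was 2306, with 1221 lower.

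**Figure D1:**
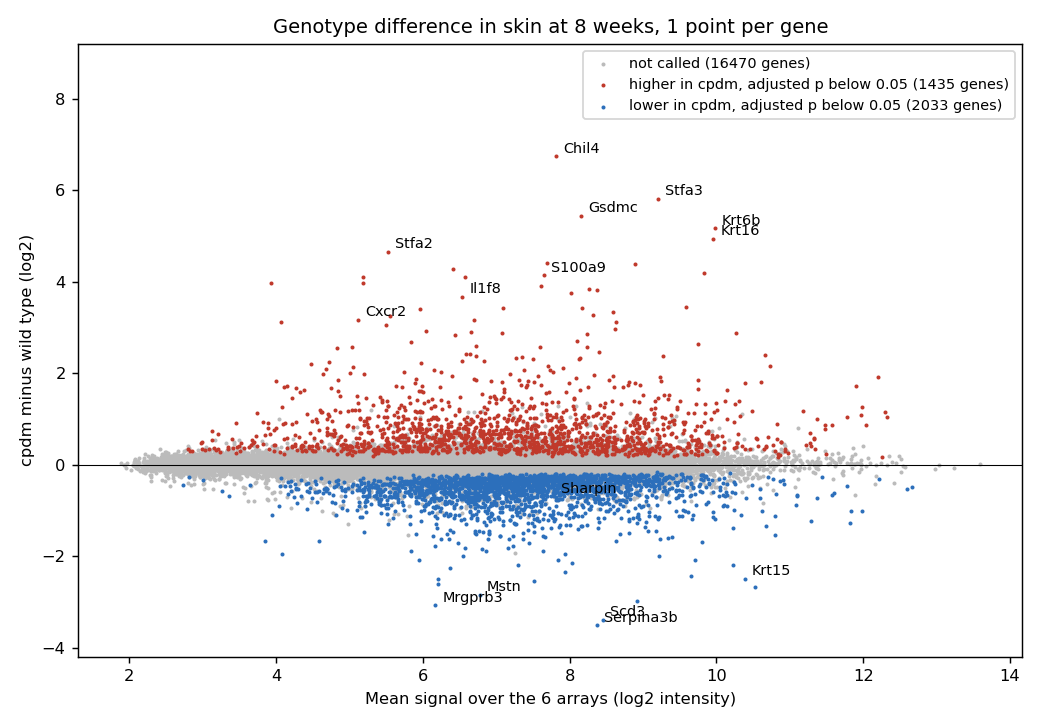
Difference between cpdm and wild type skin (log2, y axis) against the mean signal over the 6 arrays (log2 intensity, x axis), with 1 point for each of 19938 genes. Red points are the 1435 genes called higher in cpdm skin and blue points the 2033 called lower. The highest points are Chil4 at 6.74 and Stfa3 at 5.82, and the lowest are Serpina3b at -3.51 and Scd3 at -3.40.

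Most genes of the list of keratinocyte stress and hyperplasia rose, several of them by large amounts. Stfa3, a stefin that inhibits cysteine proteases, was measured at 12.25, 12.17 and 11.91 in cpdm replicates 1 to 3 and 7.30, 6.85 and 4.73 in wild type replicates 1 to 3, a difference of 5.82 ± 0.43 (adjusted p = 5.77e-10). The cpdm arrays lay far above the wild type arrays, whose lowest value was that of replicate 3, and without it the difference was 5.04 ± 0.34. Krt6b and Krt16, keratins made by wounded and hyperproliferative epidermis, differed by 5.17 ± 0.46 and 4.94 ± 0.62. Krt16 was measured at 12.60, 12.42 and 12.27 in the cpdm arrays and 7.80, 7.43 and 7.23 in the wild type arrays, so that wild type replicate 3 was close to the other wild type arrays. Gsdmc and Gsdmc2, gasdermins of epithelia, rose by 5.44 ± 0.28 and 4.27 ± 0.30. Serpinb3a, a protease inhibitor of squamous epithelium, rose by 3.98 ± 0.45. Stfa2, Lce3c (a late cornified envelope protein that is induced in injured skin) and Krt6a rose by 4.65 ± 0.29, 4.42 ± 0.24 and 2.88 ± 0.39. Of the list of keratinocyte stress and hyperplasia genes, 23 of 26 measured members rose and 0 fell, with a median difference of 2.29. The same 23 of 26 were called without wild type replicate 3, with a median of 2.53, and 22 or 23 with any other array left out. The members not called were Defb4 (0.47 ± 0.25), Gsdmc4 (0.24 ± 0.11) and the cytokine gene Il20 (0.20 ± 0.22). Signal can be shared between probe sets of closely similar genes, here the stefins, small proline-rich proteins, gasdermins, late cornified envelope proteins and chitinase-like proteins, so which member changed is uncertain.

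Small proline-rich proteins are cross-linked into the cornified envelope, and their genes lie together on chromosome 3. Sprr1b was measured at 11.94, 11.94 and 11.90 in cpdm replicates 1 to 3 and 7.34, 7.13 and 8.76 in wild type replicates 1 to 3, a difference of 4.18 ± 0.40 (adjusted p = 4.71e-08). Its 3 cpdm arrays lay close together, while wild type replicate 3 was the highest of the wild type arrays. Sprr2d, Sprr2e, Sprr2h and Sprr2i rose by 3.43 ± 0.23, 3.41 ± 0.20, 2.89 ± 0.51 and 1.21 ± 0.23. The 250 bases before the start of 3 of these genes are shown because they rose together from 1 gene cluster. They are RefSeq sequences on GRCm38.p6, written 5′ to 3′ on the gene's strand, for Sprr1b (chr3:92438780-92439029, minus strand), Sprr2d (chr3:92338890-92339139, plus strand) and Sprr2h (chr3:92385435-92385684, plus strand). Capitals mark matches to the AP-1 motif TGANTCA, which reads the same on both strands, and to the TATA box TATAAA on the gene's strand.
Sprr1b: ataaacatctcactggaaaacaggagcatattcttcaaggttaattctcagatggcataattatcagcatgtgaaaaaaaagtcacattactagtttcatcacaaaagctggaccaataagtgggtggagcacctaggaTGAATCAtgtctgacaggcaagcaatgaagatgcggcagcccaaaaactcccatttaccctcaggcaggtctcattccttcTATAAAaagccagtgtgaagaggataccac
Sprr2d: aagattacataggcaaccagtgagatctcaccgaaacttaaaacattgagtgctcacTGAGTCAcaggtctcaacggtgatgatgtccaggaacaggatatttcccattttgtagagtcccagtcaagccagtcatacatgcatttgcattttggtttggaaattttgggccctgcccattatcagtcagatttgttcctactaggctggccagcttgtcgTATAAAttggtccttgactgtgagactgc
Sprr2h: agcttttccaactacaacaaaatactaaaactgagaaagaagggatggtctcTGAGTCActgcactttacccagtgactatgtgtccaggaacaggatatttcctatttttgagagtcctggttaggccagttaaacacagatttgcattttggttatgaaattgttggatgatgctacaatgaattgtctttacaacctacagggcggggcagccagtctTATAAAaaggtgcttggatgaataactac
The AP-1 match began 111 bases before the start in Sprr1b, 193 in Sprr2d and 198 in Sprr2h, and the TATA box 30, 29 and 29 bases before it. No 2 of these matches overlapped. Sprr2e and Sprr2i held both motifs at the same distances as Sprr2d, and the window of Sprr2e was identical to that of Sprr2d at 220 of 250 bases (88%), so these promoters are not independent of each other. Of the 23 stress genes that rose, 15 had an entry, with 16 promoters. AP-1 matches were found in 6 of these 16 (37.5%), against 6.75% of all 32851 promoters, and TATA boxes in 6 (37.5%), against 7.59%. Outside the small proline-rich genes, AP-1 was found only in Plaur and the TATA box only in Serpinb3a. Both shares therefore rest mainly on 1 gene cluster and do not describe the stress list as a whole. The kB consensus, the site bound by NF-kB, was found in 1 (6.25%), against 7.25%. A match describes the letters in the window and was not tested as a binding site.

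**Figure D2:**
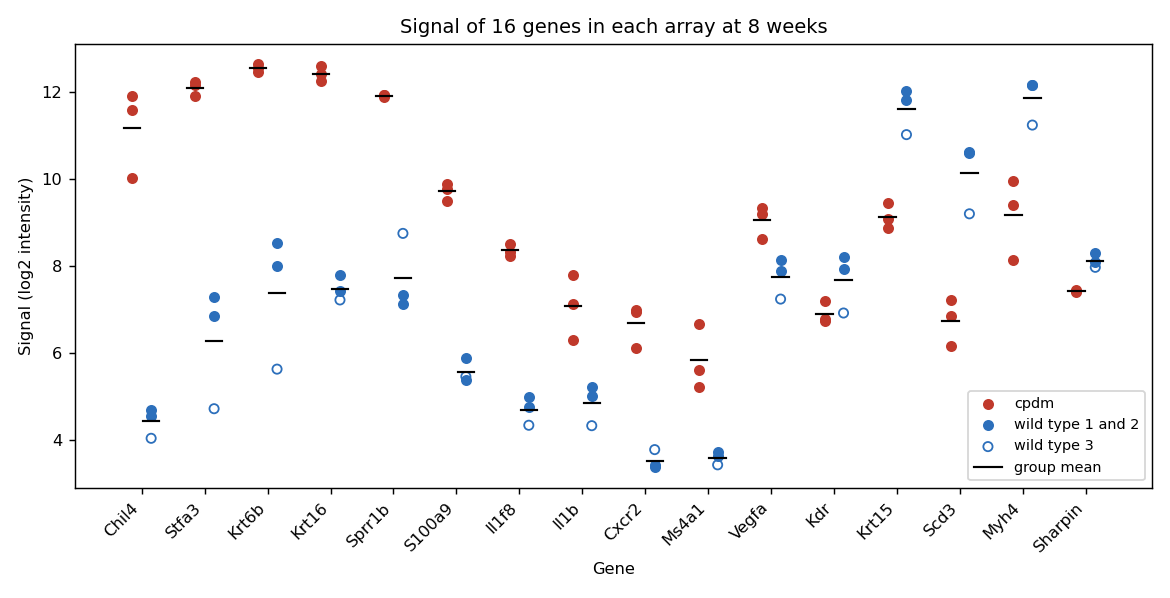
Signal (log2 intensity) of 16 genes in each of the 6 arrays at 8 weeks. Red points are cpdm arrays, filled blue points wild type replicates 1 and 2, open blue points wild type replicate 3, and black bars group means. For Krt6b and Stfa3 the open point lies below the other wild type arrays, and for Scd3 and Myh4 it lies between them and the cpdm arrays.

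Genes of antimicrobial proteins were in part higher in cpdm skin. S100a9 and S100a8, which form calprotectin, are made by neutrophils and by stressed keratinocytes, and rose by 4.14 ± 0.30 and 3.90 ± 0.37. S100a9 was measured at 9.77, 9.50 and 9.90 in the cpdm arrays and 5.89, 5.39 and 5.47 in the wild type arrays, with no overlap and with wild type replicate 3 between the other 2. Lcn2, a protein that withholds iron from bacteria, rose by 2.07 ± 0.28, the peptidoglycan-binding protein gene Pglyrp3 by 2.30 ± 0.19, and Defb14, a beta-defensin, by 1.98 ± 0.19. In all, 12 of 19 measured members rose and 2 fell, with a median difference of 0.80 (without wild type replicate 3, 11 and 2). The 2 that fell were Wfdc21 (-1.32 ± 0.28), a whey acidic protein of epithelia, and the lysozyme gene Lyz1 (-1.61 ± 0.48), whose signal can be shared with Lyz2 (0.41 ± 0.38, adjusted p = 0.510). Il24, an interleukin 10 family cytokine of keratinocytes, rose by 1.35 ± 0.20. The call of Lyz1 ended without cpdm replicate 2 or wild type replicate 1 (adjusted p = 0.145 to 0.170).

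Genes of epidermal differentiation changed in both directions. Rptn (repetin) and Hrnr (hornerin), proteins of the cornified cell envelope, rose by 3.81 ± 0.19 and 1.91 ± 0.15, and Casp14, the caspase of cornification, by 2.47 ± 0.13. Ivl (involucrin) and the cross-linking enzyme Tgm1 rose by 1.38 ± 0.29 and 1.33 ± 0.21. Krt1, the keratin of the spinous layer, rose by 1.72 ± 0.29, while its partner Krt10 differed by -0.66 ± 0.24 (adjusted p = 0.0560) and, without wild type replicate 3, by -0.93 ± 0.24 (adjusted p = 0.00479). The keratin gene Krt77 and Flg2, a filaggrin relative, fell by 1.27 and 0.99. Lor lay between 10.95 and 11.77 in cpdm skin and between 10.48 and 12.00 in wild type skin, with overlap. Of the list, 14 of 24 measured members rose and 2 fell, with a median difference of 0.96, and without wild type replicate 3, 16 higher and 3 lower with a median of 1.26. Kallikreins that cleave the links between cornified cells rose too, Klk13 by 3.76 ± 0.23, Klk6 by 3.45 ± 0.23 and Klk7 by 1.09 ± 0.15. Krt77 was no longer called without cpdm replicate 2 or wild type replicates 1 or 2 (adjusted p = 0.0667 to 0.180). Flg2 lost the call without cpdm replicates 1 or 2 or wild type replicates 1 or 2 (adjusted p = 0.138 to 0.236). The difference of Krt1 was 1.13 without wild type replicate 3.

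Enzymes that build the lipid barrier of the stratum corneum rose or were not called. Degs2, which hydroxylates ceramides, rose by 2.27 ± 0.20, the lipoxygenase Alox12b by 1.70 ± 0.30, the dehydrogenase Sdr9c7 by 1.52 ± 0.20 and the ceramide synthase Cers3 by 1.08 ± 0.19. Alox12b was measured at 9.39, 9.46 and 9.87 in the cpdm arrays and 8.25, 8.48 and 6.90 in the wild type arrays, without overlap. In the list, 12 of 21 measured members rose and 0 fell, with a median difference of 0.44 (without wild type replicate 3, 12 and 0).

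Krt14 and Krt15, keratins of basal keratinocytes, changed in opposite directions, and RNA of whole skin does not place these changes in a layer. Krt14 rose by 1.04 ± 0.14, whereas Krt15, the keratin of resting basal cells and of the follicle bulge, fell by 2.49 on the log2 scale. Krt15 was measured at 9.08, 9.45 and 8.88 in cpdm replicates 1 to 3 and 11.83, 12.03 and 11.03 in wild type replicates 1 to 3 (adjusted p = 1.12e-09), and the lowest wild type array, replicate 3, still lay above all cpdm arrays. Col17a1, a hemidesmosome collagen that anchors basal cells, fell by 0.86. Krt5 differed by 0.20 ± 0.08 (adjusted p = 0.0699). Over the list, 3 of 20 measured members rose and 4 fell, with a median difference of -0.14, and without wild type replicate 3 the counts were 3 and 7. Trp63, the master transcription factor of stratified epithelium, lay between 9.60 and 9.62 in cpdm skin and between 9.55 and 9.85 in wild type skin.

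Ligands of the epidermal growth factor receptor moved in opposite directions. Epgn (epigen) rose by 3.28 ± 0.37, Hbegf by 2.08 ± 0.25, Ereg by 1.2 ± 0.19 and Nrg1 by 0.85 ± 0.13, while Btc (betacellulin) fell by 1.27 and Egf by 0.59. Epgn was measured at 9.67, 10.14 and 10.06 in cpdm replicates 1 to 3 and 6.36, 6.96 and 6.70 in wild type replicates 1 to 3, with no overlap (adjusted p = 7.54e-07). Of 9 measured ligands 4 rose and 2 fell (without wild type replicate 3, 5 and 3). Tgfa differed by 0.30 ± 0.27 (adjusted p = 0.499) with all arrays and by 0.72 ± 0.23 (adjusted p = 0.0238) without wild type replicate 3. The call of Egf ended without cpdm replicate 2 or wild type replicates 1 or 2 (adjusted p = 0.114 to 0.228). The difference of Egf was -0.94 without wild type replicate 3.

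Most cell cycle genes of the list rose. Plk1, a kinase of mitotic entry, rose by 1.17 ± 0.26 and was measured at 8.13, 8.42 and 7.42 in the cpdm arrays and 6.47, 6.36 and 7.63 in the wild type arrays. Wild type replicate 3 lay above wild type replicates 1 and 2 and cpdm replicate 3 was the lowest cpdm array. Top2a, the topoisomerase of dividing cells, Mki67, which encodes the Ki-67 antigen, and Cdk1 rose by 1.05 ± 0.30, 0.98 ± 0.33 and 0.87 ± 0.23. Of the list, 19 of 27 measured members rose and 0 fell, with a median difference of 0.75. The mean signal of the list was 7.79, 8.10 and 7.37 in the cpdm arrays and 6.87, 6.63 and 7.54 in the wild type arrays, so wild type replicate 3 lay above cpdm replicate 3. The count of members that rose was 22 without that array and 21 without cpdm replicate 3. It was 10 without cpdm replicate 1, 4 without cpdm replicate 2, 8 without wild type replicate 1 and 3 without wild type replicate 2. The calls of Top2a and Mki67 each ended without cpdm replicates 1 or 2 or wild type replicates 1 or 2 (adjusted p = 0.0608 to 0.234). Cdk1 was no longer called without cpdm replicate 2 or wild type replicate 2 (adjusted p = 0.0509 to 0.0672).

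Among members of the linear ubiquitin and TNF pathway, Sharpin and Ikbkg (NEMO, the NF-kB kinase subunit that binds linear chains) fell, by 0.69 and 0.38. Ikbkg was measured at 6.86, 6.82 and 7.02 in the cpdm arrays and 7.28, 7.31 and 7.24 in the wild type arrays. The other subunits of the complex, Rnf31 and Rbck1, differed by -0.17 ± 0.09 (adjusted p = 0.251) and -0.14 ± 0.08 (adjusted p = 0.245). Tnfaip3 (A20), a deubiquitinase that limits the pathway, rose by 0.84 ± 0.24, the ubiquitin ligase gene Birc3 by 0.69 ± 0.18 and Ltb (lymphotoxin beta) by 0.61 ± 0.14. Tnf itself was measured at 5.91, 6.02 and 6.01 in the cpdm arrays and 5.59, 5.45 and 5.61 in the wild type arrays, without overlap, but the difference of 0.43 ± 0.17 did not pass the test (adjusted p = 0.0910). Its receptors Tnfrsf1a (0.14 ± 0.09) and Tnfrsf1b (0.55 ± 0.27) and the deubiquitinase genes Otulin (0.11 ± 0.09) and Cyld (0.02 ± 0.13) were not called. In total, 3 of 21 measured members rose and 2 fell, with a median difference of 0.10, with the same counts of 3 and 2 without wild type replicate 3. These were 23.8% of the list, against 17.4% of all genes, or 25.7% of all genes without that array. Tnfaip3 lost the call without cpdm replicate 1 or wild type replicate 1 (adjusted p = 0.0828 to 0.0917). The call of Birc3 ended without cpdm replicate 1 (adjusted p = 0.0621).

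Of the cell death list 20% of members passed the test, against 17.4% of all genes. Casp4, the inflammatory caspase that senses lipopolysaccharide, rose by 1.06 ± 0.23. Casp8 and Ripk3, the initiators of apoptosis and necroptosis downstream of the TNF receptor, rose by 0.65 ± 0.19 and 0.62 ± 0.21. Neither Casp8 (0.45 ± 0.19, adjusted p = 0.0902) nor Ripk3 (0.50 ± 0.24, adjusted p = 0.127) was called without wild type replicate 3. Mlkl, which executes necroptosis, differed by 0.08 ± 0.31 and Gsdmd, which executes pyroptosis, by 0.25 ± 0.22, neither of them called. Bcl2l1, which protects from apoptosis, fell by 0.50. Of the list, 3 of 20 measured members rose and 1 fell, with a median difference of 0.04 (without wild type replicate 3, 1 and 2). Casp8 was no longer called without cpdm replicate 1 or wild type replicates 2 or 3 (adjusted p = 0.0902 to 0.104). Ripk3 lost the call without cpdm replicates 1, 2 or 3 or wild type replicates 2 or 3 (adjusted p = 0.0677 to 0.244). The difference of Casp4 was 0.70 without wild type replicate 3.

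NF-kB subunits and targets rose or were not called. Ptgs2, the inducible prostaglandin synthase, rose by 1.37 ± 0.30, Bcl3 and Nfkbiz, nuclear regulators of NF-kB, by 1.0 ± 0.23 and 0.53 ± 0.13, and Nfkb2, the precursor of the p52 subunit, by 0.86 ± 0.16. Nfkb2 was measured at 9.07, 8.61 and 8.65 in cpdm replicates 1 to 3 and 8.07, 8.15 and 7.54 in wild type replicates 1 to 3 (adjusted p = 0.000463). The arrays did not overlap, and without wild type replicate 3 the difference was 0.67 ± 0.16. Classical targets such as Nfkbia (0.13 ± 0.18), Cxcl1 (0.21 ± 0.08) and Il6 (0.21 ± 0.16) were not called. In all, 10 of 22 measured members rose and 0 fell, with a median difference of 0.29, with 8 called without wild type replicate 3 and 6 without cpdm replicate 1. Promoters of Nfkb2 (chr19:46304487-46304736, plus strand) and Nfkbie (chr17:45555450-45555699, plus strand), which encodes an inhibitor of NF-kB and rose by 0.69 ± 0.21, are shown because they hold the kB consensus, searched on both strands and marked in capitals. The window of Nfkbie also holds an AP-1 match.
Nfkb2: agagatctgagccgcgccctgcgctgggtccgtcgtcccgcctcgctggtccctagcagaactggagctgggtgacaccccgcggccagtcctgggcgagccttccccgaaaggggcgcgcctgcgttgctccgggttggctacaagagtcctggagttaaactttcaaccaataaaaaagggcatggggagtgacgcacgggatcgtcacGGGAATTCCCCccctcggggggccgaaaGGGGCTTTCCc
Nfkbie: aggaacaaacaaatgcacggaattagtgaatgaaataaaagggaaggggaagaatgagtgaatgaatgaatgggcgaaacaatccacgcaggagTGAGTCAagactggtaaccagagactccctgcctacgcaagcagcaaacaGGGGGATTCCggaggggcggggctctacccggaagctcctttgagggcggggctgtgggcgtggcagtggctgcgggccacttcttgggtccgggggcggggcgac
In Nfkb2 matches began 39, 38 and 11 bases before the start, the first 2 overlapping, and in Nfkbie the kB match began 106 and the AP-1 match 156 bases before it. The 10 genes that rose had 12 promoters of 9 genes in the RefSeq table. The kB consensus was found in 6 of the 12 (50%), against 7.25% of all promoters, and AP-1 in 3 (25%), against 6.75%. Alternative starts of a gene were counted as separate promoters. All starts of Nfkb2 held the kB consensus, and the other promoters with it were of Rel, Nfkbie and Tnfaip3. The 10 genes that rose were listed as known NF-kB targets, so the list and the motif are not independent. The call of Nfkbie ended without cpdm replicate 1 or wild type replicate 3 (adjusted p = 0.118 to 0.165).

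Most measured members of the interleukin 1 family rose. Il1f8, Il1f6 and Il1f9, which encode the interleukin 36 cytokines beta, alpha and gamma of keratinocytes, rose by 3.67 ± 0.19, 3.17 ± 0.16 and 3.11 ± 0.31. Il1f8 was measured at 8.33, 8.25 and 8.52 in cpdm replicates 1 to 3 and 4.76, 4.99 and 4.35 in wild type replicates 1 to 3 (adjusted p = 4.87e-13), and every cpdm array lay far above every wild type array. Il1b, the interleukin 1 of myeloid cells, rose by 2.22 ± 0.42 and was measured at 7.14, 6.32 and 7.80 in the cpdm arrays and 5.24, 5.03 and 4.34 in the wild type arrays, with a wide spread among cpdm arrays but no overlap. Il1a and Il18, cytokines of keratinocytes, rose by 1.29 ± 0.14 and 1.01 ± 0.18. Antagonists rose as well, Il1rn by 0.78 ± 0.13 and Il1f5, the interleukin 36 antagonist, by 1.40 ± 0.17. Among receptors, Il1rl2, which binds interleukin 36, and Il18rap rose by 0.58 ± 0.10 and 1.28 ± 0.17, Il18r1 differed by 0.34 ± 0.21 (adjusted p = 0.294) and the shared chain Il1rap by 0.15 ± 0.14 (adjusted p = 0.528). The decoy receptor gene Il1r2 fell by 1.16 and Il1f10 by 1.11. Il33, an alarmin of stromal and epithelial cells, rose by 1.10 ± 0.34, but by 0.51 ± 0.26 (adjusted p = 0.177) without wild type replicate 3, and Il18bp, the binding protein of interleukin 18, differed by -0.17 ± 0.09 (adjusted p = 0.209). Of the family, 11 of 16 measured members rose and 2 fell, with a median difference of 1.06, and without wild type replicate 3 the counts were 10 and 1. The 11 genes that rose had 14 promoters of 10 genes, of which 3 (21.4%) held AP-1, 4 (28.6%) a TATA box and 0 the kB consensus. Il33 entered the TATA box count with more than 1 start. Il1r2 was no longer called without cpdm replicate 2 or wild type replicates 1 or 2 (adjusted p = 0.0506 to 0.0648). Il1f10 lost the call without cpdm replicate 3 or wild type replicate 3 (adjusted p = 0.0798 to 0.114). The call of Il33 ended without cpdm replicates 1 or 3 or wild type replicate 3 (adjusted p = 0.0612 to 0.177).

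Chemokines that rose included those that attract type 2 cells and granulocytes. Ccl17, a ligand of CCR4 on T cells, rose by 2.60 ± 0.26, Ccl22, which binds the same receptor, by 0.99 ± 0.24, and Ccl8 by 1.75 ± 0.41. Ccl17 was measured at 8.33, 7.41 and 8.34 in the cpdm arrays and 5.51, 5.80 and 4.97 in the wild type arrays. Ccl3 and Cxcl2, attractants of monocytes and neutrophils, rose by 2.03 ± 0.45 and 1.10 ± 0.29, and Cxcl16, a transmembrane chemokine, by 1.29 ± 0.16. Cxcl13, which guides B cells, differed by 1.11 ± 0.52 (adjusted p = 0.149), with cpdm replicate 3 at 9.47 and cpdm replicate 2 at 7.14. In the list, 7 of 28 measured members rose and 0 fell, with a median difference of 0.40 (without wild type replicate 3, 7 and 0). With all arrays 25% were called, against 17.4% of all genes, of which 7.2% were higher and 10.2% lower. Without cpdm replicate 2 the count that rose was 11. Cxcl2 was no longer called without cpdm replicate 3 (adjusted p = 0.0937).

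Some targets of type 2 cytokines rose, others fell or were not called, and of the cytokine genes Il4 rose while Il5 and Il13 were not called. Chil4 and Chil3, chitinase-like proteins of myeloid and epithelial cells, differed by 6.74 ± 0.44 and 3.97 ± 0.38, and Alox15, a lipoxygenase of eosinophils and alternatively activated macrophages, by 2.33 ± 0.25. Chil4 was measured at 11.92, 11.60 and 10.04 in cpdm replicates 1 to 3 and 4.71, 4.57 and 4.05 in wild type replicates 1 to 3 (adjusted p = 4.40e-11). Its lowest cpdm value, in replicate 3, still lay far above the highest wild type value. Tslp, an epithelial cytokine that starts type 2 responses, and the matricellular protein gene Postn rose by 1.13 ± 0.32 and 1.0 ± 0.19. Il4 rose by 0.43 ± 0.13 and was measured at 5.05, 4.92 and 5.33 in the cpdm arrays and 4.71, 4.61 and 4.70 in the wild type arrays, while Il13 (0.12 ± 0.10) and Il5 (-0.07 ± 0.11) were not called. Retnla, another marker of alternatively activated macrophages, fell by 1.18 and the transcription factor gene Gata3 by 0.61. In the list, 15 of 26 measured members rose and 2 fell, with a median difference of 0.51, and without wild type replicate 3, 10 higher and 2 lower with a median of 0.30. The count that rose was 8 without cpdm replicate 3 and 10 without cpdm replicate 1. Il4 lost the call without cpdm replicates 1 or 3 or wild type replicates 1 or 2 (adjusted p = 0.0531 to 0.161). The call of Tslp ended without cpdm replicate 3 or wild type replicate 2 (adjusted p = 0.0668 to 0.102). Retnla was no longer called without cpdm replicate 2 or wild type replicate 1 (adjusted p = 0.272 to 0.305).

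Of type 17 genes, Il23a, a subunit of interleukin 23, rose by 0.69 ± 0.19, the receptor subunit gene Il17rc by 0.53 ± 0.13 and Zc3h12a, which degrades cytokine mRNA, by 0.91 ± 0.14. Il17a (0.05 ± 0.09) and Il17f (0.09 ± 0.09) were not called, and Il17a overlapped between genotypes (between 5.23 and 5.52 in cpdm skin and between 5.28 and 5.43 in wild type skin). In the list, 7 of 21 measured members rose and 1 fell, with a median difference of 0.21, among them S100a8, S100a9 and Lcn2, which the antimicrobial list also holds. The counts without wild type replicate 3 were 6 and 1. Of type 1 genes, 1 of 18 measured members rose and 0 fell, with a median difference of 0.09, the 1 being Stat4 (0.94 ± 0.12), a signal transducer of interleukin 12. The type 1 list had 1 called higher and 2 lower without wild type replicate 3. With all arrays 5.56% of it was called, against 17.4% of all genes. Ifng differed by 0.09 ± 0.13 (adjusted p = 0.702). Il23a lost the call without cpdm replicate 3 or wild type replicate 1 (adjusted p = 0.0716 to 0.0797). The difference of Il17rc was 0.34 without wild type replicate 3.

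Interferon response genes had a negative median difference, and 10% of the list passed the test, against 17.4% of all genes. Over the list, 0 of 20 measured members rose and 2 fell, with a median difference of -0.53. The 2 that fell were Usp18, a protease that limits interferon signalling (-0.91 ± 0.31), and Ifih1, a sensor of double-stranded RNA (-0.70 ± 0.23). The mean signal of the list was 6.49, 6.01 and 6.21 in the cpdm arrays and 7.70, 6.67 and 6.21 in the wild type arrays, so wild type replicate 1 stood above every other array and wild type replicate 3 lay among the cpdm arrays. The number that fell was 6 without wild type replicate 3 (median -0.85) and 0 without wild type replicate 1, wild type replicate 2, cpdm replicate 2 or cpdm replicate 3. Ifit3, an antiviral effector, was measured at 5.11, 4.94 and 5.07 in the cpdm arrays and 7.73, 6.40 and 5.57 in the wild type arrays. Of the complement list, 2 of 17 measured members rose and 0 fell, with a median difference of 0.17, and without wild type replicate 3, 2 higher and 2 lower with a median of -0.05. With all arrays 11.8% of it was called, against 17.4% of all genes. The risers were Masp1 (1.38 ± 0.17), a protease of the lectin pathway, and Hc (0.36 ± 0.09), which encodes C5. The calls of Usp18 and Ifih1 each ended without cpdm replicates 2 or 3 or wild type replicates 1 or 2 (adjusted p = 0.0785 to 0.270). The call of Hc ended without cpdm replicate 3 or wild type replicate 2 (adjusted p = 0.0530 to 0.0644).

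Most marker genes of neutrophils rose. Cxcr2, the chemokine receptor of neutrophils, rose by 3.17 ± 0.22, Ngp, a granule protein, by 2.10 ± 0.27, Mmp8, the neutrophil collagenase, by 1.72 ± 0.21, and Csf3r, the receptor of the granulocyte growth factor, by 1.35 ± 0.21. Cxcr2 was measured at 6.96, 6.13 and 7.01 in cpdm replicates 1 to 3 and 3.38, 3.43 and 3.79 in wild type replicates 1 to 3 (adjusted p = 2.15e-10), without overlap and with all wild type arrays low. Of the list, 14 of 19 measured members rose and 1 fell, with a median difference of 1.16, and without wild type replicate 3, 14 higher and 1 lower with a median of 1.03. Camp (0.08 ± 0.12), Elane (0.17 ± 0.12) and Ly6g (0.01 ± 0.14), which mark granule formation and the neutrophil lineage, were not called.

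Eosinophil and mast cell genes were also higher in part. Ccr3, the eotaxin receptor, rose by 1.25 ± 0.28, Prg2, the major basic protein of eosinophil granules, by 1.01 ± 0.13, and Siglecf, an eosinophil surface lectin, by 0.64 ± 0.12. Prg2 was measured at 5.51, 5.07 and 5.02 in the cpdm arrays and 4.07, 4.22 and 4.29 in the wild type arrays. In the eosinophil list, 6 of 8 measured members rose and 0 fell, with a median difference of 0.56 (without wild type replicate 3, 5 and 0), while Epx, the eosinophil peroxidase, differed by 0.23 ± 0.13 (adjusted p = 0.253). Fcer1a, the alpha chain of the IgE receptor, rose by 1.46 ± 0.19, Hdc, which makes histamine, by 1.47 ± 0.19, Mcpt8, a basophil protease, by 1.15 ± 0.18 and Tpsb2, a mast cell tryptase, by 1.06 ± 0.17. Mrgprb2, a receptor of connective tissue mast cells, fell by 0.94. In the mast cell and basophil list, 10 of 17 measured members rose and 1 fell, with a median difference of 0.65, and without wild type replicate 3, 7 higher and 1 lower with a median of 0.40. Mrgprb2 was no longer called without cpdm replicate 3 or wild type replicates 1 or 2 (adjusted p = 0.0521 to 0.111).

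Most B cell genes of the list rose. Ms4a1 (CD20) was measured at 6.67, 5.24 and 5.61 in cpdm replicates 1 to 3 and 3.73, 3.64 and 3.44 in wild type replicates 1 to 3, a difference of 2.24 ± 0.25 (adjusted p = 6.88e-07). Cpdm replicate 1 was the highest, and the wild type arrays lay close together. Cd79a and Cd79b, the signalling chains of the B cell receptor, rose by 1.70 ± 0.25 and 1.93 ± 0.18, Pax5, the B lineage factor, by 0.87 ± 0.19, and Jchain, the joining chain of secreted IgM and IgA, by 2.14 ± 0.36. Of the list, 12 of 17 measured members rose and 0 fell, with a median difference of 0.68 (without wild type replicate 3, 13 and 0), and Cr2, the complement receptor of mature B cells, differed by 0.19 ± 0.09 (adjusted p = 0.172).

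T cell genes did not move as 1 group. Il7r, the interleukin 7 receptor, rose by 1.82 ± 0.23, Il2ra, a chain of the interleukin 2 receptor, by 1.47 ± 0.18, the costimulator gene Icos by 1.01 ± 0.19 and Cd2 by 0.88 ± 0.19. Of the receptor complex, Cd3g fell by 1.05 while Cd3d (-0.05 ± 0.14) and Cd3e (-0.36 ± 0.13) were not called. Cd3e differed by -0.53 ± 0.13 (adjusted p = 0.00292) without wild type replicate 3. The regulatory T cell factor Foxp3 differed by 0.10 ± 0.09 (adjusted p = 0.540). In the list, 8 of 17 measured members rose and 1 fell, with a median difference of 0.34 (without wild type replicate 3, 7 and 2). Skint10, of a family whose founding member selects epidermal gamma-delta T cells, was among the largest falls (-2.51 ± 0.32). Of 13 NK cell genes 0 were called with all arrays, against 17.4% of all genes. An unadjusted p below 0.05 was found for 4 of them, and the share of all genes at that threshold is not given here. Of the 13 genes 2 were called lower without wild type replicate 3, and 2 were called higher without wild type replicate 1. Cd3g lost the call without cpdm replicate 2 or wild type replicates 1 or 2 (adjusted p = 0.0568 to 0.0720).

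Of the macrophage markers 5.56% passed the test and of the dendritic cell markers 19%, against 17.4% of all genes. Of the macrophage list, 0 of 18 measured members rose and 1 fell, with a median difference of 0.28, the 1 being Mertk (-0.52 ± 0.14), a receptor for apoptotic cells. The counts without wild type replicate 3 were 1 and 2. The list mean was 8.02, 7.51 and 8.10 in the cpdm arrays and 8.62, 7.34 and 7.39 in the wild type arrays, highest in wild type replicate 1. Adgre1, a pan-macrophage receptor, was measured at 8.62, 7.92 and 8.62 in the cpdm arrays and 8.87, 7.60 and 7.02 in the wild type arrays. Among dendritic cell genes Itgax (CD11c), which neutrophils and macrophages share, rose by 1.80 ± 0.26, and Ccr7, the receptor of migrating dendritic cells, by 0.78 ± 0.14. Cd207 (langerin), the Langerhans cell marker, differed by -0.40 ± 0.21 (adjusted p = 0.214) with all arrays and by -0.61 ± 0.22 (adjusted p = 0.0393) without wild type replicate 3. In the list, 3 of 21 measured members rose and 1 fell, with a median difference of 0.15 (without wild type replicate 3, 3 and 2), and Cd209a, a lectin of dermal dendritic cells, was the 1 that fell (-0.83 ± 0.26). The call of Mertk ended without cpdm replicate 1 or wild type replicate 2 (adjusted p = 0.0573 to 0.109). Cd209a was no longer called without cpdm replicates 2 or 3 or wild type replicates 1 or 2 (adjusted p = 0.0790 to 0.217).

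**Figure D3:**
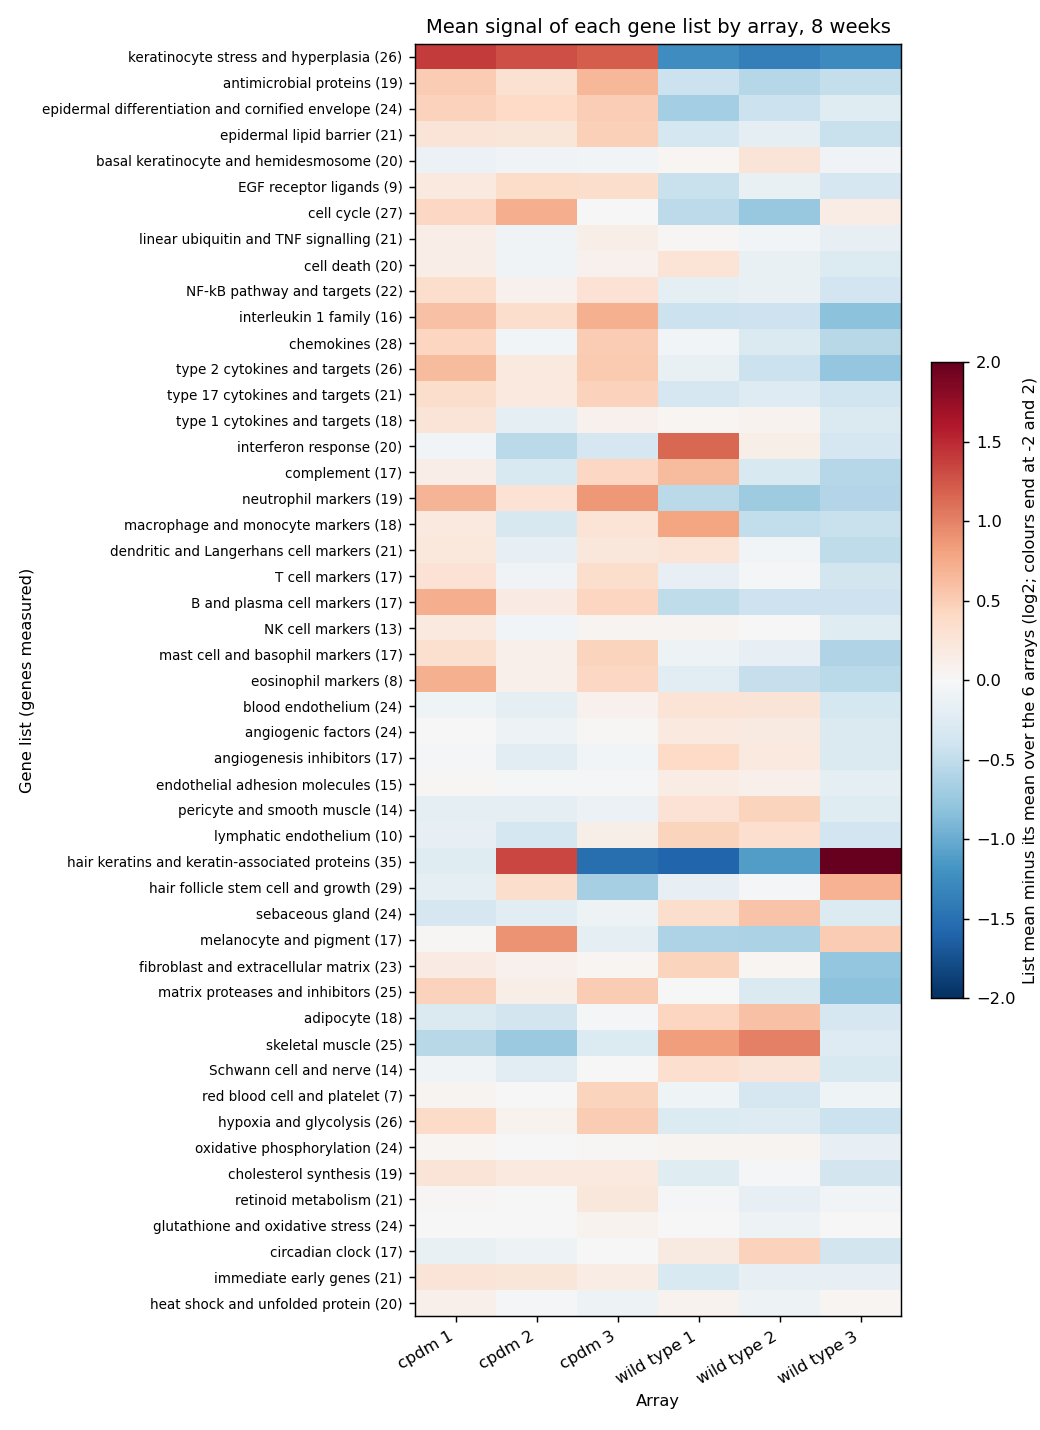
Mean signal of each gene list in each array minus its mean over the 6 arrays (log2, colour), with lists as rows and arrays as columns. The stress list is high in all cpdm and low in all wild type arrays, while the interferon and macrophage lists are highest in wild type replicate 1 and the hair keratin list in wild type replicate 3.

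Vegfa had the largest difference of the 3 angiogenic factors that rose. Members called were 25% of angiogenic factors, 20.8% of blood endothelium, 23.5% of angiogenesis inhibitors and 26.7% of endothelial adhesion molecules. Over all genes 17.4% were called, 7.2% higher and 10.2% lower. Vegfa, the main endothelial growth factor, rose by 1.30 ± 0.21 and was measured at 9.21, 8.64 and 9.34 in cpdm replicates 1 to 3 and 8.15, 7.89 and 7.25 in wild type replicates 1 to 3 (adjusted p = 7.82e-05), without overlap. Hgf, hepatocyte growth factor, and Hif1a, the hypoxia factor, rose by 1.19 ± 0.22 and 0.78 ± 0.12. Angpt1, which stabilises vessels, fell by 0.73, Fgf2 by 0.42 and Ccn2, a matricellular growth factor, by 1.03. Of 24 angiogenic factors 3 rose and 3 fell, with a median of -0.07 (without wild type replicate 3, 3 and 8, median -0.20). Angpt2 (0.17 ± 0.13), Vegfc (-0.16 ± 0.16), Vegfb (-0.05 ± 0.12) and Pgf (-0.02 ± 0.15), the placental growth factor, were not called. Without wild type replicate 2, 0 of the factors were called lower. Angpt1 lost the call without cpdm replicate 3 or wild type replicates 1 or 2 (adjusted p = 0.0535 to 0.119). The call of Fgf2 ended without cpdm replicates 1 or 3 or wild type replicates 1 or 2 (adjusted p = 0.0849 to 0.321). Ccn2 was no longer called without cpdm replicate 1 or wild type replicate 2 (adjusted p = 0.0583 to 0.123).

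Of endothelial receptors, Flt1, which binds Vegfa and is also made as a soluble trap, rose by 0.75 ± 0.18, whereas Kdr, the main signalling receptor, fell by 0.77. Kdr was measured at 6.75, 6.80 and 7.20 in cpdm replicates 1 to 3 and 8.21, 7.93 and 6.93 in wild type replicates 1 to 3, with wild type replicate 3 among the cpdm values. Tek (TIE2), Aplnr (the apelin receptor) and Robo4 fell by 0.54, 0.43 and 0.43. Flt1 was measured at 7.92, 7.48 and 8.35 in the cpdm arrays and 7.38, 7.36 and 6.77 in the wild type arrays. Pan-endothelial genes were not called, with 0.12 ± 0.15 for Pecam1, -0.23 ± 0.15 for Cdh5 and 0.07 ± 0.16 for Cldn5, a protein of tight junctions. Without wild type replicate 3 Pecam1 differed by -0.17 and Cldn5 by -0.10, also not called. Of the 24 genes of blood endothelium 1 rose and 4 fell, with a median of -0.10, and without wild type replicate 3, 1 higher and 10 lower with a median of -0.29. The list mean was 7.06, 6.98 and 7.24 in the cpdm arrays and 7.43, 7.41 and 6.80 in the wild type arrays, lowest in wild type replicate 3. Fewer than 4 fell without any other array, and 0 without wild type replicate 2. Kdr lost the call without cpdm replicates 1 or 2 or wild type replicates 1 or 2 (adjusted p = 0.0538 to 0.127). The call of Tek ended without cpdm replicates 1, 2 or 3 or wild type replicates 1 or 2 (adjusted p = 0.0609 to 0.222). Aplnr was no longer called without cpdm replicate 3 or wild type replicates 1 or 2 (adjusted p = 0.0992 to 0.343). Robo4 lost the call without cpdm replicates 1 or 2 or wild type replicate 2 (adjusted p = 0.0659 to 0.192). The difference of Tek was -0.85 without wild type replicate 3.

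Endothelial adhesion molecules changed in both directions. In the list, 2 of 15 measured members rose and 2 fell, with a median difference of -0.07, and without wild type replicate 3, 2 higher and 6 lower with a median of -0.10. Vcam1, which binds lymphocytes and eosinophils, rose by 1.29 ± 0.22 and Icam1, a ligand of leukocyte integrins, by 0.51 ± 0.16, while Sele (E-selectin) differed by 0.27 ± 0.18 (adjusted p = 0.347). Cd34, found on vessels and on follicle stem cells, and Cd99l2 fell by 0.72 and 0.70. Vcam1 was measured at 8.00, 7.37 and 8.29 in the cpdm arrays and 7.01, 6.63 and 6.14 in the wild type arrays. Angiogenesis inhibitors that changed all fell, namely Timp3 (1.11 lower on the log2 scale) and Timp2 (0.67 lower), inhibitors of metalloproteases, Angptl1 (0.95 lower) and Sfrp4 (1.71 lower), a secreted Wnt antagonist that was 6.80 in wild type replicate 3 and 9.28 and 8.81 in the other wild type arrays. Col18a1 (-0.20 ± 0.15), the source of endostatin, and Thbs1 (-0.10 ± 0.47), thrombospondin 1, were not called. Of 17 inhibitors 4 fell, and 6 without wild type replicate 3. The call of Icam1 ended without cpdm replicate 1 or wild type replicate 3 (adjusted p = 0.148 to 0.174). Cd34 was no longer called without cpdm replicate 2 or wild type replicates 1 or 2 (adjusted p = 0.0867 to 0.213). Angptl1 lost the call without cpdm replicates 1 or 2 or wild type replicates 1 or 2 (adjusted p = 0.0588 to 0.148). The difference of Cd34 was -1.15 without wild type replicate 3. The difference of Timp2 was -0.43 without wild type replicate 1.

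Of the pericyte and smooth muscle genes 21.4% were called, against 17.4% of all genes. Myh11, the smooth muscle myosin, fell by 0.98, Abcc9 by 0.79 and Cnn1 by 0.75, while Pdgfrb (0.12 ± 0.20) and Rgs5 (0.35 ± 0.17) were not called. In the list, 0 of 14 measured members rose and 3 fell, with a median difference of -0.33 (without wild type replicate 3, 0 and 6). The count that fell was 1 without wild type replicate 2, 2 without cpdm replicate 1 or wild type replicate 1, and 5 without cpdm replicate 3. Of 10 lymphatic genes 1 was called (2 without wild type replicate 3), namely Sema3d (-2.20 ± 0.28), a guidance cue also made outside lymphatics, which was measured at 6.16, 6.07 and 6.38 in the cpdm arrays and 8.77, 9.02 and 7.42 in the wild type arrays. Prox1, the lymphatic master factor, differed by -0.01 ± 0.19 (adjusted p = 0.976). The calls of Myh11 and Cnn1 each ended without wild type replicate 2 (adjusted p = 0.0510 to 0.0841). The call of Abcc9 ended without cpdm replicates 1 or 2 or wild type replicates 1 or 2 (adjusted p = 0.0949 to 0.234). The difference of Abcc9 was -1.24 without wild type replicate 3.

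No hair keratin gene passed the test with all arrays, and the arrays within each genotype differed widely. The median signal of the 35 hair keratin and keratin-associated protein genes was 7.19, 8.75 and 5.75 in cpdm replicates 1 to 3 and 5.63, 6.08 and 10.9 in wild type replicates 1 to 3. Krt25, a keratin of the inner root sheath, was measured at 10.93, 12.17 and 6.61 in the cpdm arrays and 6.49, 7.29 and 12.86 in the wild type arrays. Wild type replicate 3 was above every cpdm array for 34 of the 35 genes. With all arrays 0 genes were called, with a median difference of -0.38. At an unadjusted p below 0.05 the count was also 0. Without wild type replicate 3 the median was 1.10 and 5 genes rose, namely Krt25 (3.01 ± 0.93), Krt27 (2.77 ± 0.84), Krt71 (2.48 ± 0.89) and Krt73 (2.86 ± 0.87) of the inner root sheath and Krt35 (2.17 ± 0.69) of the hair cuticle and matrix. The order of the arrays was therefore wild type replicate 3, cpdm replicates 2 and 1, and then the other 3, whose medians lay close together.

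**Figure D4:**
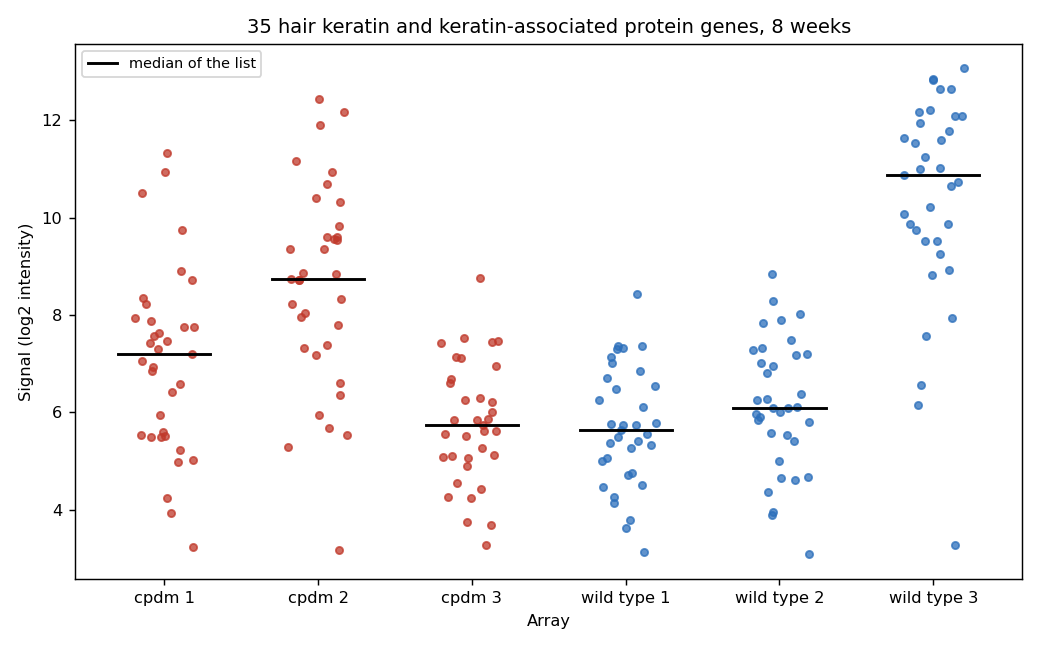
Signal (log2 intensity) of 35 hair keratin and keratin-associated protein genes in each array at 8 weeks, 1 point per gene, with a bar at the median of the list. Red points are cpdm and blue points wild type arrays. The median runs from 5.63 in wild type replicate 1 to 10.9 in wild type replicate 3.

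Some regulators of the follicle passed the test with all arrays. Fgf18, a factor of the resting bulge, fell by 1.47 and was measured at 6.89, 6.69 and 6.78 in the cpdm arrays and 8.66, 8.86 and 7.24 in the wild type arrays. Bmp4, which keeps follicle cells at rest, fell by 0.88 and Tcf7l1 by 0.50. Shh, the hedgehog ligand of growing follicles, rose by 0.63 ± 0.22. Lgr5, a stem cell receptor, differed by -0.40 ± 0.29 (adjusted p = 0.387), and Sox9 by -0.78 ± 0.28 (adjusted p = 0.0541). Of the list, 1 of 29 measured members rose and 8 fell, with a median difference of -0.16, and without wild type replicate 3, 4 higher and 8 lower with a median of 0.09. Its list mean was 7.27, 7.80 and 6.79 in the cpdm arrays and 7.29, 7.42 and 8.15 in the wild type arrays, highest in wild type replicate 3. The part of the hair cycle in these differences was not tested. Tcf7l1 was no longer called without cpdm replicate 3 (adjusted p = 0.0721). Shh lost the call without cpdm replicates 1 or 2 or wild type replicates 1 or 2 (adjusted p = 0.112 to 0.283).

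Pigment genes were highest in the arrays with the highest hair keratin signal. Tyrp1, a melanin-producing enzyme, was measured at 8.39, 10.07 and 8.28 in the cpdm arrays and 6.57, 6.68 and 9.44 in the wild type arrays, a difference of 1.35 ± 0.72 (adjusted p = 0.220) with all arrays and 2.29 ± 0.69 (adjusted p = 0.0162) without wild type replicate 3. Over the list, 1 of 17 measured members rose and 1 fell, with a median difference of 0.38, and without wild type replicate 3, 9 higher and 1 lower with a median of 0.64. With all arrays 11.8% of it was called, against 17.4% of all genes. The list mean was 6.79, 7.66 and 6.59 in the cpdm arrays and 6.15, 6.13 and 7.28 in the wild type arrays. Rab38, a trafficking protein of melanosomes, rose by 0.73 ± 0.16 with all arrays. Mitf, the melanocyte master factor, fell by 0.62, but was not called without wild type replicate 3 (-0.43 ± 0.19, adjusted p = 0.0996). The call of Mitf ended without cpdm replicates 1 or 3 or wild type replicate 3 (adjusted p = 0.0749 to 0.111).

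Sebaceous gland genes included the strongest fall of a lipid enzyme. Scd3, a stearoyl-CoA desaturase of sebocytes, was measured at 6.17, 6.86 and 7.22 in cpdm replicates 1 to 3 and 10.60, 10.63 and 9.21 in wild type replicates 1 to 3, a difference of -3.40 ± 0.37 (adjusted p = 4.14e-07). The arrays did not overlap, although wild type replicate 3 lay closer to the cpdm arrays than the other wild type arrays did. Awat2, a wax synthase, fell by 1.44, the elongase gene Elovl5 by 1.38 and Mc5r, the sebaceous melanocortin receptor, by 1.07. Elovl3, a second elongase, and Krt79, a keratin of the follicle funnel and sebaceous duct, rose by 1.0 ± 0.23 and 0.87 ± 0.13. Of the list, 3 of 24 measured members rose and 7 fell, with a median difference of -0.30, and without wild type replicate 3, 3 higher and 12 lower with a median of -0.56. Awat2 was no longer called without wild type replicate 2 (adjusted p = 0.0884).

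Most skeletal muscle genes of the list fell. Myh4, the fastest of the myosin heavy chains, was measured at 9.97, 9.42 and 8.15 in cpdm replicates 1 to 3 and 12.17, 12.17 and 11.25 in wild type replicates 1 to 3, a difference of -2.68 ± 0.35 (adjusted p = 5.23e-06). Wild type replicate 3 was the lowest wild type array and still lay above the highest cpdm array. Mstn (myostatin), Actn3 (the actinin of fast fibres), Pvalb (parvalbumin) and Casq1, a calcium store protein, fell by 2.85, 2.44, 2.19 and 1.70. Myh2, the myosin of an oxidative fast fibre type, differed by 0.50 ± 0.33 (adjusted p = 0.339) and Mb (myoglobin) by 0.08 ± 0.34 (adjusted p = 0.908). Without wild type replicate 3 Myh2 differed by 0.04 and Mb by -0.34, also not called. Of the list, 0 of 25 measured members rose and 17 fell, with a median difference of -0.91, and without wild type replicate 3, 0 higher and 21 lower with a median of -1.30. The list mean was 9.49, 9.31 and 9.77 in the cpdm arrays and 10.88, 11.05 and 9.78 in the wild type arrays. The count that fell was between 10 and 12 without cpdm replicate 1, cpdm replicate 2, wild type replicate 1 or wild type replicate 2. How much of the muscle layer each skin sample held was not measured.

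Fat genes were lower in part. Lep (leptin) fell by 1.89 and was measured at 5.18, 5.23 and 4.28 in the cpdm arrays and 6.91, 7.05 and 6.41 in the wild type arrays, and Car3, a carbonic anhydrase of fat and muscle, fell by 1.02. Adipoq (adiponectin) differed by -0.80 ± 0.36 (adjusted p = 0.139) with all arrays and by -1.31 ± 0.33 (adjusted p = 0.00470) without wild type replicate 3. Over the list, 1 of 18 measured members rose and 5 fell, with a median difference of -0.41, and without wild type replicate 3, 0 higher and 10 lower with a median of -0.76. The list mean was 8.23, 8.14 and 8.49 in the cpdm arrays and 8.95, 9.11 and 8.18 in the wild type arrays, so that wild type replicate 3 lay within the cpdm range.

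Fibroblast and matrix genes were mainly not called. Tnc (tenascin C), a matrix protein of wounds, rose by 2.97 ± 0.33 and was measured at 10.25, 9.93 and 10.11 in the cpdm arrays and 6.36, 6.84 and 8.18 in the wild type arrays, and Fap, a protease of activated fibroblasts, fell by 0.91. Col1a1 differed by -0.41 ± 0.19 (adjusted p = 0.137) and, without wild type replicate 3, by -0.79 ± 0.12 (adjusted p = 2.53e-05). Of the list, 2 of 23 measured members rose and 1 fell, with a median difference of 0.09, and without wild type replicate 3, 2 higher and 8 lower with a median of -0.31. With all arrays 13% of it was called, against 17.4% of all genes. The list mean was 9.87, 9.80 and 9.74 in the cpdm arrays and 10.16, 9.75 and 8.94 in the wild type arrays, lowest in wild type replicate 3. With wild type replicate 1 left out instead, 8 members were called higher. The direction of this list therefore turned with the wild type array left out.

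Some proteases that degrade matrix rose, while other members of the list fell or were not called. Mmp12, the macrophage elastase, was measured at 10.45, 9.67 and 10.44 in cpdm replicates 1 to 3 and 6.55, 7.02 and 5.48 in wild type replicates 1 to 3, a difference of 3.84 ± 0.30 (adjusted p = 1.12e-09) without overlap. Mmp13 (a collagenase), Mmp11 (stromelysin 3) and Mmp10 rose by 2.89 ± 0.25, 1.95 ± 0.47 and 1.04 ± 0.17, and the inhibitor gene Timp1 by 1.86 ± 0.31. Mmp3 (0.44 ± 0.35) and Mmp14 (0.32 ± 0.18) were not called. Of the list, 12 of 25 measured members rose and 3 fell, with a median difference of 0.52, and without wild type replicate 3, 11 higher and 4 lower with a median of 0.10.

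Of the Schwann cell and nerve genes 14.3% were called and of the red cell and platelet genes 28.6%, against 17.4% of all genes. Of Schwann cell and nerve genes, 0 of 14 measured members rose and 2 fell, with a median difference of -0.20, with Ngfr, a receptor of glia and nerves, lower by 0.57 and S100b, a glial calcium-binding protein, lower by 0.45. The nerve list had 1 called higher and 8 lower without wild type replicate 3. Mbp, the myelin basic protein, differed by -0.24 ± 0.18 (adjusted p = 0.418) with all arrays. Of 7 red cell and platelet genes 2 rose, Ppbp (0.94 ± 0.17) and Itga2b (0.50 ± 0.09) of platelets, with the same count without wild type replicate 3, and Alas2, of red cells, differed by 0.44 ± 0.21 (adjusted p = 0.166). Ngfr lost the call without wild type replicate 1 (adjusted p = 0.0808). The call of S100b ended without cpdm replicates 1 or 2 (adjusted p = 0.0530 to 0.105).

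More glycolysis and hypoxia genes rose than fell. Egln3, an oxygen-sensing hydroxylase that is itself a hypoxia target, rose by 2.38 ± 0.22, the glucose transporter gene Slc2a1 by 1.63 ± 0.14, the lactate exporter gene Slc16a3 by 1.14 ± 0.17 and the glycolytic enzyme gene Pfkl by 1.26 ± 0.11. Slc2a1 was measured at 11.16, 10.60 and 11.13 in cpdm replicates 1 to 3 and 9.22, 9.56 and 9.23 in wild type replicates 1 to 3 (adjusted p = 7.15e-09), without overlap. Aldoa, the aldolase of muscle, fell by 0.31, and Ldha, lactate dehydrogenase, differed by 0.20 ± 0.12 (adjusted p = 0.312). In the list, 14 of 26 measured members rose and 1 fell, with a median difference of 0.67 (without wild type replicate 3, 14 and 1). Of 24 genes of oxidative phosphorylation 1 rose and 1 fell, with a median of 0.07, and without wild type replicate 3, 1 higher and 4 lower with a median of 0.01. With all arrays 8.33% of these were called, against 17.4% of all genes. Aldoa was no longer called without cpdm replicates 1 or 2 or wild type replicates 1 or 2 (adjusted p = 0.0651 to 0.192).

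Cholesterol synthesis genes rose or were not called. Cyp51 and Sqle, which act on the sterol ring and on squalene, rose by 1.11 ± 0.18 and 0.96 ± 0.14, and Idi1, which supplies isoprene units, by 1.0 ± 0.18. Cyp51 was measured at 9.03, 8.77 and 8.96 in the cpdm arrays and 7.68, 8.05 and 7.70 in the wild type arrays. In the list, 7 of 19 measured members rose and 0 fell, with a median difference of 0.34, with the same counts of 7 and 0 without wild type replicate 3. Of retinoid genes, Aldh1a3, which makes retinoic acid, rose by 2.30 ± 0.18 and Crabp2, which carries it to its receptor, by 1.27 ± 0.20, while Dhrs3, which returns retinal to retinol, fell by 0.49. In that list, 2 of 21 measured members rose and 3 fell, with a median difference of 0.10, and without wild type replicate 3 the counts were 5 and 4. With all arrays 23.8% of it was called, against 17.4% of all genes. Among genes of oxidative stress defence Gsta4 and Gpx1 rose by 2.02 ± 0.27 and 1.06 ± 0.18, and Gstm5 and Gstm1 fell by 1.17 and 0.78. The list held 6 that rose and 4 that fell of 24 (without wild type replicate 3, 7 and 6).

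Bhlhe40 and Bhlhe41, related repressors of the clock, rose by 1.44 ± 0.21 and fell by 1.14. Dbp, an output gene of the clock, was measured at 7.62, 7.91 and 7.61 in the cpdm arrays and 8.68, 9.32 and 6.95 in the wild type arrays, with wild type replicate 3 below the cpdm arrays. Of the clock list, 1 of 17 measured members rose and 1 fell, with a median difference of -0.22, and without wild type replicate 3, 2 higher and 8 lower with a median of -0.48. With all arrays 11.8% of the clock list was called, 14.3% of immediate early genes and 10% of heat shock and unfolded protein genes, against 17.4% of all genes. Fos, a subunit of the AP-1 factor, rose by 1.82 ± 0.56, Junb, another subunit, by 0.73 ± 0.20, and Fosl1, whose product is also an AP-1 subunit, by 1.01 ± 0.15. Of immediate early genes, 3 of 21 measured members rose and 0 fell, with a median difference of 0.35, and without wild type replicate 3, 8 higher and 0 lower with a median of 0.48. Of 20 heat shock and unfolded protein genes 1 rose and 1 fell, with the same counts without wild type replicate 3, the latter being Hspb1 (-0.72 ± 0.15), a small heat shock protein of differentiating keratinocytes. The sources used here do not give the hour at which skin was taken. Fos lost the call without cpdm replicates 1 or 3 or wild type replicates 1 or 2 (adjusted p = 0.0515 to 0.0856). The call of Junb ended without wild type replicates 1 or 2 (adjusted p = 0.0545 to 0.0940).

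Other genes with large differences fell outside these lists. Adgrg7, an adhesion receptor, rose by 4.11 ± 0.19 and was measured at 8.81, 8.34 and 8.73 in the cpdm arrays and 4.35, 4.80 and 4.39 in the wild type arrays, and Csta3, a stefin relative, rose by 4.10 ± 0.26. Serpina3b, a protease inhibitor of the mouse antichymotrypsin cluster, was measured at 5.89, 6.43 and 7.54 in cpdm replicates 1 to 3 and 10.85, 10.85 and 8.69 in wild type replicates 1 to 3, a difference of -3.51 ± 0.52 (adjusted p = 3.39e-05). Wild type replicate 3 lay between the other wild type arrays and the cpdm arrays. Mrgprb3, an orphan receptor of the Mrgpr family, fell by 3.08, the anion exchanger gene Slc26a7 by 2.60, Ifitm6, of the interferon-induced transmembrane family, by 2.53, Paqr7, a membrane progestin receptor, by 2.34, and Akr1c18, a progesterone-inactivating enzyme, by 2.09. Il31ra, a subunit of the interleukin 31 receptor, fell by 1.57 and was 6.57 in wild type replicate 3 and 8.82 and 8.65 in the other wild type arrays. Dapl1 differed by -2.99. Cd209f, a lectin of the DC-SIGN family, fell by 2.08 and Efhd1, a mitochondrial calcium-binding protein, by 2.00. Il31ra was no longer called without wild type replicates 1 or 2 (adjusted p = 0.0586 to 0.0621). Cd209f lost the call without cpdm replicates 2 or 3 or wild type replicate 1 (adjusted p = 0.0760 to 0.212).

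Leaving out wild type replicate 3 added 2030 called genes and removed 371. The 10 added genes with the lowest p were all lower in cpdm skin, among them Lama4, a laminin of vessel and muscle basement membranes, which was measured at 8.27, 7.99 and 8.17 in the cpdm arrays and 9.29, 9.06 and 7.64 in the wild type arrays. Its difference was -0.52 ± 0.23 (adjusted p = 0.136) with that array and -1.03 ± 0.13 (adjusted p = 1.87e-06) without it. Nfia, a transcription factor of the nuclear factor I family, differed by -0.45 ± 0.19 (adjusted p = 0.109) and -0.86 ± 0.12 (adjusted p = 6.60e-06), and Ehd2, a protein of caveolae, by -0.49 ± 0.18 (adjusted p = 0.0626) and -0.85 ± 0.12 (adjusted p = 8.12e-06). Wild type replicate 3 was the lowest of the 6 arrays for all 3. Of genes called only with it, H2-M2, a nonclassical MHC class I gene, differed by 0.89 ± 0.23 (adjusted p = 0.00752) and, without it, by 0.52 ± 0.20 (adjusted p = 0.0507). List medians that changed sign when it was left out were those of hair keratins, hair follicle genes, fibroblast genes, macrophage genes, dendritic cell genes, complement, cell death, and glutathione and oxidative stress. H2-M2 was also not called without cpdm replicate 1 (adjusted p = 0.0562).

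**Figure D5:**
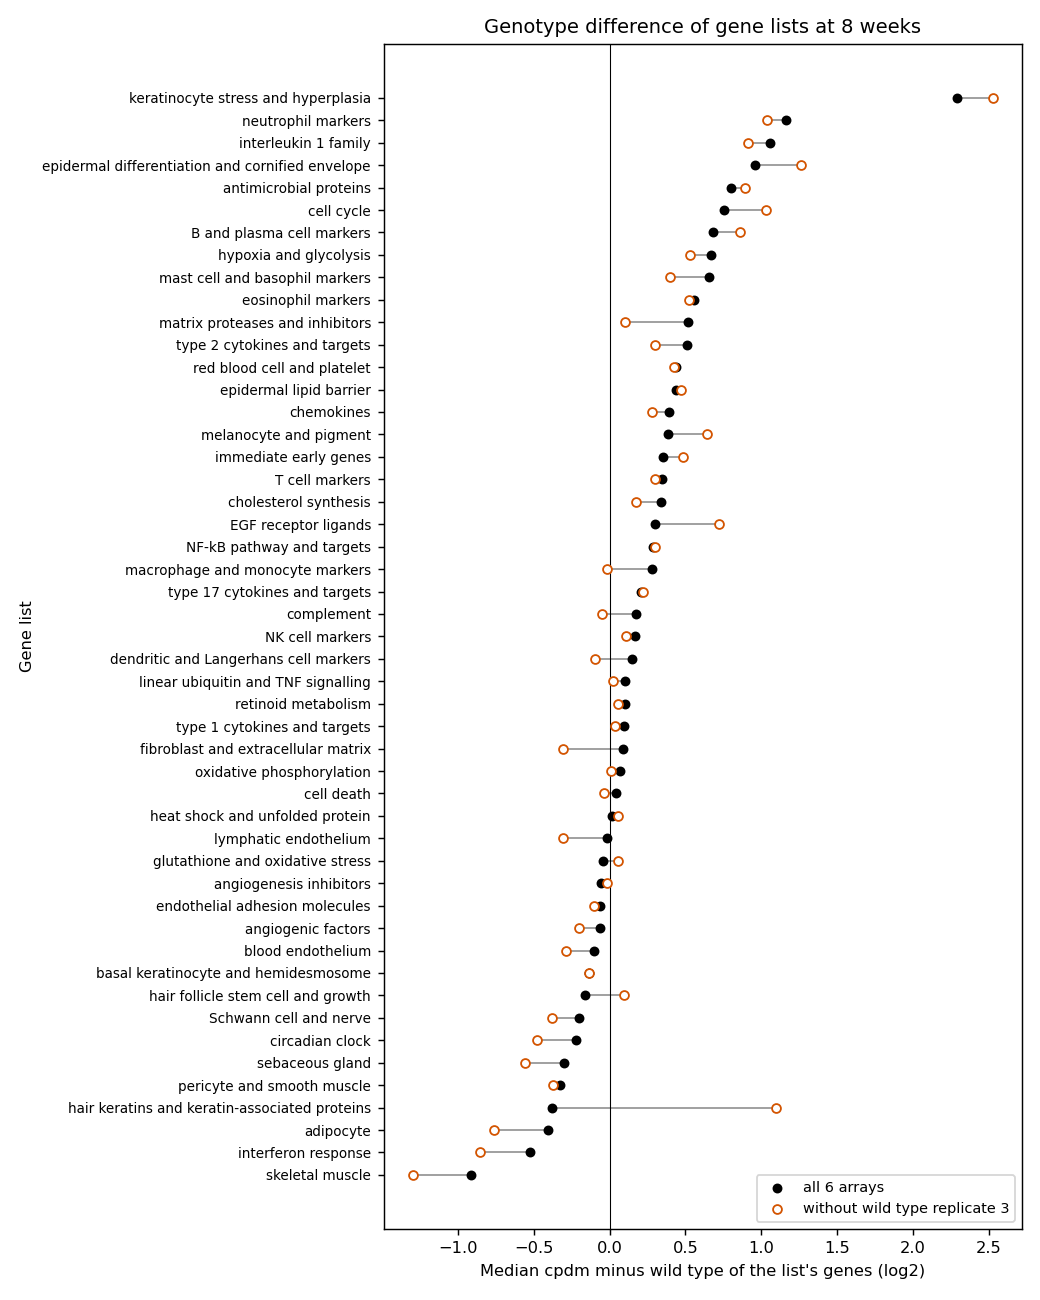
Median difference (cpdm minus wild type, log2, x axis) of the genes of each list, with all 6 arrays (black points) and without wild type replicate 3 (open orange points). The hair keratin list moved from -0.38 to 1.10 and the fibroblast list from 0.09 to -0.31, while the stress list was 2.29 and 2.53.

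The genotype difference at 8 weeks was compared with those at 6 and 10 weeks, which rest on other mice (3 cpdm and 4 wild type arrays, and 3 and 3). It differed from that at 6 weeks in 15 genes (0.0752%), more positive at 8 weeks in 10 and less so in 5, and from that at 10 weeks in 53 genes (0.266%), more positive in 22 and less so in 31 (limma interaction). At an unadjusted p below 0.05 the counts were 1654 and 3281 of 19938 genes, a threshold that does not allow for the number of genes tested. The lowest p for the change from 6 weeks was that of an immunoglobulin kappa variable segment, whose difference was more positive at 8 weeks and which is not described further here. Sprr2g, Sprr2f and Lce3c, cornified envelope genes, had larger differences at 8 weeks, 3.24, 1.86 and 4.42 against 1.49 ± 0.20, 0.79 ± 0.14 and 2.72 ± 0.23 at 6 weeks. Pyy, peptide YY, had a smaller one, 1.23 ± 0.32 against 3.66 ± 0.30 (adjusted p = 0.0276). Against 10 weeks, Pla2g2d, a phospholipase of dendritic cells, differed by 0.42 ± 0.14 at 8 and by -0.87 ± 0.14 at 10 weeks (adjusted p = 0.0175), and Psmd3, a proteasome subunit, by -0.10 ± 0.08 and 0.55 ± 0.08 (adjusted p = 0.0303). These counts rest on single arrays. Without wild type replicate 3, 1175 genes differed between 8 and 6 weeks and 0 between 8 and 10 weeks. Without wild type replicate 1 the counts were 2 and 735, without wild type replicate 2 they were 1 and 381, without cpdm replicate 1 they were 7 and 0, without cpdm replicate 2 they were 9 and 234, and without cpdm replicate 3 they were 5 and 0. The genotype difference at 8 weeks itself lost its call with 1 array left out in 2 of these genes. The call of Pyy ended without cpdm replicate 3 (adjusted p = 0.0909). Pla2g2d was no longer called without cpdm replicates 1 or 3 or wild type replicates 1, 2 or 3 (adjusted p = 0.0657 to 0.148).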

How the data were processed

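The authors deposited log2 intensities. The submitters' processing notes name RMA and Affymetrix Expression Console 1.2, and the sources used here do not say whether all arrays were normalized together. Per the labels' protocols, RNA was taken with TRIzol from skin stored in RNAlater. The number of arrays limits the precision.

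Of 35556 probe sets, 21789 had a single gene symbol, 1621 several and 12146 none, and 21698 were matched to RefSeq (GRCm38.p6). For the 999 genes with several probe sets the brightest over 31 arrays was used. The fit used lmFit and eBayes of limma 3.58.1 (R 4.3.3) and gave each of the 10 groups of genotype and age its own mean, leaving 21 residual degrees of freedom. P-values were two-sided and adjusted over 19938 genes by Benjamini-Hochberg. The steps were tested on simulated data in which each gene had the same spread in every array. That test does not cover an array that stands apart, as wild type replicate 3 does. Python 3.11.15 with matplotlib 3.10.9 drew the figures.

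The comparison, its 49 gene lists and its alternatives were chosen with earlier results of these data known. Lists share members and are described by counts and medians, without a set test. Genes were named by rule: Sharpin, the 20 largest rises and 20 largest falls among called genes without overlap, up to 5 members of each list by p and further list members as examples, all members of the lists of vessel, linear ubiquitin, interleukin 1 and hair keratin genes (part of which the text gives by counts and ranges only), and the 10 lowest p for each change with age, or with wild type replicate 3 left out. Clones and gene models were left out. Promoters were the 250 bases before each start in RefSeq's table. Alternatives were a fit of the 8-week arrays alone, the mean of probe sets, dim genes left out, trend and robust spread, array weights, quantile normalization, centring, a replicate block, stricter thresholds and each array left out.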

Additional observations from a re-analysis of the deposited data

Results flagged for a closer look

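For these genes the genotype difference at 8 weeks differed from that at a neighbouring age by the interaction test of limma, with p-values adjusted over all genes. Against 6 weeks, the change in difference was 1.76 ± 0.29 for Sprr2g (adjusted p = 0.0239), 1.70 ± 0.34 for Lce3c (adjusted p = 0.0472), 1.45 ± 0.28 for Sprr2e (adjusted p = 0.0326), 1.08 ± 0.20 for Sprr2f (adjusted p = 0.0326) and -2.43 ± 0.44 for Pyy (adjusted p = 0.0276). Against 10 weeks it was 1.29 ± 0.20 for Pla2g2d (adjusted p = 0.0175) and -0.65 ± 0.12 for Psmd3 (adjusted p = 0.0303). Without wild type replicate 3, cpdm replicate 1 or cpdm replicate 3, 0 genes differed between 8 and 10 weeks, so both of these ended. Between 8 and 6 weeks 2 genes differed without wild type replicate 1 and 1 without wild type replicate 2. At 8 weeks Pla2g2d lay between 7.09 and 7.37 in cpdm skin and between 6.76 and 6.85 in wild type skin, and the call of its difference at 8 weeks ended without any 1 array except cpdm replicate 2 (adjusted p = 0.0657 to 0.148). In Sprr2g and Sprr2f, near-identical family members can share probe signal.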

How the results depend on the processing

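The total of 3468 genes stayed within 1.5 times when a gene's probe sets were averaged (3462), the dimmest 40% left out (3195), trend and robust spread (3450), quantile normalization (3431) and arrays centred on their median (3456). It was 311 with only the arrays of 8 weeks (237 higher, 74 lower), 5274 with array weights (3228 lower, 2046 higher), 1877 at an adjusted p below 0.01 and 568 at 2-fold or more. The array weight of wild type replicate 3 was 0.161, the lowest of the 6 arrays at 8 weeks. With 1 array left out the total ran from 2306 to 5127, the genes higher from 1038 to 1942 and the genes lower from 1221 to 3185. Of the called genes, 41.4% were higher in cpdm skin, 48.7% after centring, 47.0% after quantile normalization and 76.2% in the fit of 8-week arrays alone. Genes whose difference changed from 6 weeks numbered 1283 with array weights and 1 to 1175 with 1 array left out, and those for 10 weeks 387 and 0 to 735. The cause was not tested.

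Replicate numbers were not used to pair the samples in the main fit. Arrays with the same number deviated from their group means with correlations of 0.252, -0.474 and -0.561. These values rest on 3 arrays per group and cannot decide whether arrays of the same number belong together. With a replicate block 2881 genes were called, and 10 of the 217 called genes named here lost the call.

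Of 217 called genes named here, 0 changed direction under any alternative. 134 lost the call with only the arrays of 8 weeks, 5 with array weights, 5 with quantile normalization and 9 to 37 with 1 array left out. Among the genes named here, signs turned only for some that were not called with all arrays. With array weights the sign turned for Cldn5 (-0.16), Crnn (1.48), Cyld (-0.048), Gprc5d (1.09), Krt26 (1.54), Ly6g (-0.071), Mb (-0.40), Myh2 (-0.16), Nfkbia (-0.093), Pdgfrb (-0.12), Pecam1 (-0.026), Pgf (0.068) and Thbs1 (0.30). With quantile normalization the sign turned for Ly6g (-0.039). With arrays centred on their median the sign turned for Pgf (0.018) and Prox1 (0.022). With 1 array left out the sign turned, and the difference ran over the range given, for Cd3d (-0.17 to 0.05), Cldn5 (-0.10 to 0.32), Crnn (-1.26 to 2.02), Cyld (-0.19 to 0.16), Gprc5d (-1.43 to 1.85), Gsdmd (-0.05 to 0.50), Il20 (-0.17 to 0.41), Krt25 (-0.17 to 3.01), Krt26 (-1.40 to 2.07), Krt27 (-0.29 to 2.77), Krt35 (-0.60 to 2.17), Krt71 (-0.38 to 2.48), Krt73 (-0.31 to 2.86), Lor (-0.53 to 0.23), Ly6g (-0.14 to 0.18), Mb (-0.34 to 0.43), Mlkl (-0.20 to 0.43), Nfkbia (-0.11 to 0.33), Pdgfrb (-0.29 to 0.36), Pecam1 (-0.17 to 0.29), Pgf (-0.16 to 0.10), Prox1 (-0.33 to 0.25), Tgfa (-0.03 to 0.72), Thbs1 (-0.36 to 0.42) and Vegfb (-0.24 to 0.10). Number of arrays sets the depth here, and dim genes near background have compressed differences.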
